A study of Homo sapiens with 6 samples.

Results

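The 9 genes described here encode matrix metalloproteinases, their tissue inhibitors and the urokinase system, and they were chosen by symbol from the 17860 genes of the expression table: MMP7, MMP13, MMP14, MMP15, MMP28, TIMP1, TIMP2, PLAU and PLAUR. All 9 had a value in every sample and passed the filter on low counts, so 9 of 9 were tested. The other protease genes of 7 further lists are given after them for comparison.

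Matrix metalloproteinases (MMPs) are zinc-dependent enzymes that cut collagens and other proteins of the extracellular matrix, and they are made with a propeptide that keeps them inactive until it is removed. Tissue inhibitors of metalloproteinases (TIMPs) bind the active site, and TIMP2 can also bridge MMP14 to pro-MMP2 at the cell surface. Urokinase (PLAU) bound to its receptor (PLAUR) converts plasminogen to plasmin, a serine protease that degrades fibrin and activates several pro-MMPs, and both systems are studied in carcinoma because of their roles in invasion.

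RNA-Seq was performed in HCC1806-HM3 cells, a line derived from the human triple-negative breast cancer line HCC1806 through 3 rounds of growth in nude mice and recovery from liver metastases. The labels call them squamous carcinoma cells of the breast. All 6 samples carried a lentiviral shRNA vector with a G418 selection marker: 3 samples held a control shRNA (shNC, genotype Control) and 3 an shRNA against mesothelin (shMSLN, genotype MSLN knockdown), and mRNA was enriched with oligo(dT). The cells were stably selected and grown in medium with serum, the shRNA sequence used for these samples was not given, and no rescue is among these samples. The labels do not say whether replicates were separate cultures, so the p-values measure the spread between samples, which may be technical.

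The table held between 17507837 and 18512135 estimated reads per sample. MSLN, the targeted gene, was measured at 231, 226 and 227 CPM (read counts relative to library size) in shNC and at 37.1, 36.2 and 35.4 CPM in shMSLN cells, which was 15.9% of control. The shMSLN columns did not look alike: among genes with more than 100 reads, 4.67% of counts were whole numbers in replicate 1 against 47.7% and 47.8% in replicates 2 and 3, and 8 of the 9 genes held whole counts in each of the latter. In addition, 1103, 695 and 695 genes had no value in shMSLN replicates 1, 2 and 3 against 0 in each shNC sample. Whether the shMSLN and shNC columns were quantified in the same way is not given in the sources used here, so a difference in how they were made and the knockdown cannot be told apart in any fold change below. Calls lost with shMSLN replicate 1 alone against the 3 shNC samples are named. This setting leaves out the columns with many whole counts but not the difference in missing values. A call can also be lost there because a single shMSLN sample is left.

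The epithelial markers EPCAM, CDH1, KRT8, KRT18 and KRT19 summed to between 3010 and 3373 CPM in shNC and between 3177 and 3395 CPM in shMSLN cells, with CDH1 called higher and KRT18 lower. Of 6 basal or squamous markers, KRT5, KRT6A, TP63 and SFN were lower, KRT17 was higher and KRT14 was not called, and their sum was between 2918 and 3289 CPM in shNC and between 2440 and 2513 CPM in shMSLN cells. Of 6 fibroblast markers 4 were tested, with LUM and DCN higher, 0 lower, and COL1A1 and PDGFRB not called. Over all tested genes 16.6% were called higher and 18.0% lower, the shares to set beside these marker counts. The sum of the fibroblast markers went from between 94.1 and 97.8 CPM to between 159 and 163 CPM. LUM made up most of it, whereas COL1A2 and COL3A1 stayed below 0.5 CPM in all 6 samples. The 5 leukocyte markers summed to between 28.9 and 31.4 CPM in shNC and between 28.3 and 30.2 CPM in shMSLN cells. CD68 made up most of these sums, at a mean of 23.9 CPM in shNC and 22.0 CPM in shMSLN cells. PTPRC, LYZ and CD14 were present at lower levels, and CD3E was near 0. The 3 endothelial markers summed to between 7.17 and 8.54 CPM in shNC and between 8.44 and 9.53 CPM in shMSLN cells. VWF was called higher (0.41 on the log2 scale, adjusted p = 0.0273 by edgeR) and CDH5 was at -0.89 (adjusted p = 0.0503). The hepatocyte gene ALB was near 0. The part of these shifts in the results was not tested. In bulk RNA, a smaller share of cells expressing a gene and less RNA per cell cannot be told apart.

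The 5 MMPs share the zinc-binding site of the catalytic domain, and the coding bases of this site are shown (GENCODE release 29, GRCh38). In each, the capitals mark the codons of the 3 zinc-binding histidines, 33 bases are given 5′ to 3′ in the sense of the gene, and all of them lie in exon 5.
MMP7: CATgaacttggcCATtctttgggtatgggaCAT
MMP13: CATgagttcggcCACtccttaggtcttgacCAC
MMP14: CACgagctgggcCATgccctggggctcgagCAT
MMP15: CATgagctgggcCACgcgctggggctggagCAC
MMP28: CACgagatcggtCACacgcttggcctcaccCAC
These sites lie at chr11:102523343-102523375 on the reverse strand (MMP7), chr11:102952115-102952147 on the reverse strand (MMP13), chr14:22843283-22843315 on the forward strand (MMP14), chr16:58040563-58040595 on the forward strand (MMP15) and chr17:35770167-35770199 on the reverse strand (MMP28). MMP14 and MMP15 differed at 5 of the 33 bases, the fewest of any pair, and MMP7 and MMP28 at 17, the most. The other pairs differed at 9 to 12.

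MMP14, MMP15 and MMP28 also carry a site for furin, the proprotein convertase that removes the propeptide inside the cell, and its 12 coding bases in exon 3 are given in capitals.
MMP14: CGAAGGAAGCGC
MMP15: CGTCGGAAGCGC
MMP28: CGTAAGAAACGC
They lie at chr14:22841977-22841988, chr16:58038336-58038347 and chr17:35778901-35778912. No match was found in MMP7 or MMP13, which are secreted as proenzymes and activated outside the cell. The search covered only the stretch before the zinc site, without the first residues of the protein. It also required phenylalanine or tyrosine directly after the site. The coding sequences encode 267 residues in MMP7, 471 in MMP13, 582 in MMP14, 669 in MMP15 and 520 in MMP28; MMP7 lacks the hemopexin domain that the others have.

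After MSLN knockdown, MMP14 and TIMP1 were higher, and MMP13, MMP15, MMP28, TIMP2 and PLAU were lower, while MMP7 and PLAUR did not pass the test. The largest change was in MMP28, which fell to 49.4% of control, followed by PLAU at 65.0%. So 2 of 9 genes were called higher and 5 of 9 lower at an adjusted p below 0.05 (edgeR's quasi-likelihood test, Benjamini-Hochberg adjustment), against 16.6% of all 14552 tested genes called higher and 18.0% called lower, or 34.6% in either direction. In 6 of the 9 the groups did not overlap in CPM, 2 higher and 4 lower, against 46.2% of all tested genes (22.7% higher, 23.5% lower). The 9 genes were chosen with earlier results of these data known, so these counts describe the 9 genes and do not test the gene family. Of the 10 other MMPs that were tested, 40% were called. The median log2 fold change of shMSLN against shNC (log2FC) was -0.19 over the 9 genes and 0.0019 over all tested genes, and apart from MMP28 every gene changed by less than 1 on the log2 scale.

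**Figure D1:**
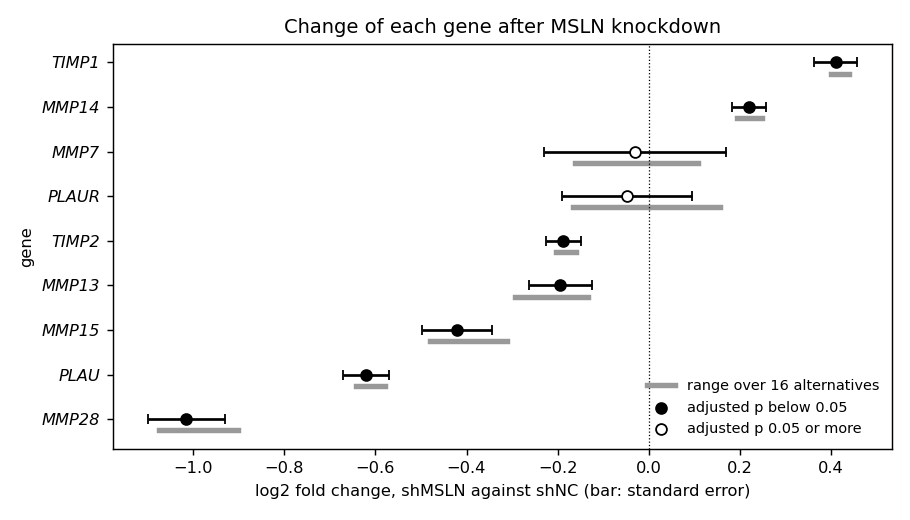
Log2FC of each gene in shMSLN against shNC cells (x axis; points with bars of 1 standard error, SE; n = 3 each) with the range over 16 alternative settings in grey. MMP28 and PLAU lay farthest below 0, TIMP1 and MMP14 lay above 0, and only the grey ranges of MMP7 and PLAUR crossed 0.

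Levels between genes were compared in TPM, which is scaled for gene length. In shNC cells the order was MMP14 (155), TIMP1 (115), TIMP2 (95.8), MMP13 (74.9), PLAU (50.1), MMP28 (41.6), MMP15 (13.5), PLAUR (8.41) and MMP7 (4.71), as mean TPM. No neighbours in this order overlapped over the 3 samples. In shMSLN cells the order of the means was the same, at 185, 157, 86.1, 66.9, 33.3, 21.2, 10.3, 8.50 and 4.71 TPM, and of the neighbours only MMP15 and PLAUR overlapped.

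**Figure D2:**
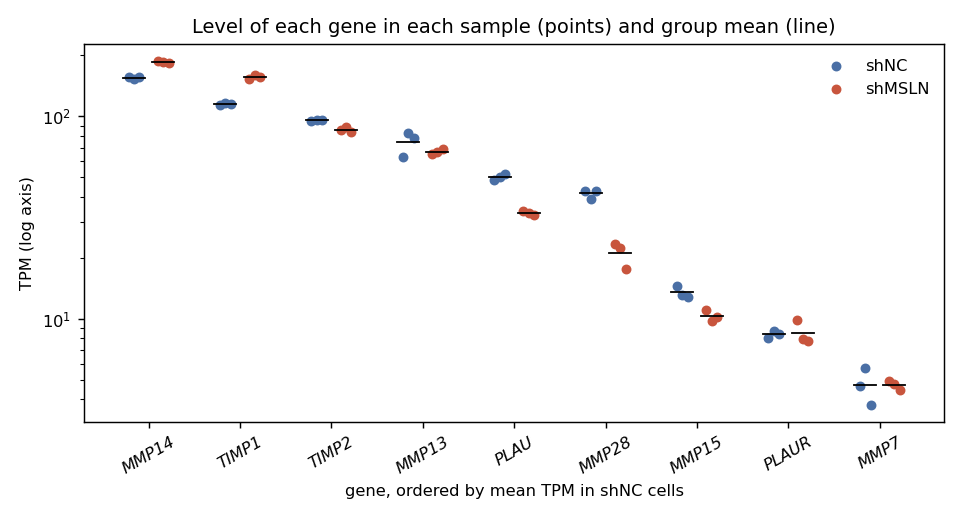
TPM on a log axis of the 9 genes in each of the 3 shNC and 3 shMSLN samples (points) with group means (lines), ordered by the shNC mean. The levels run from 155 TPM for MMP14 to 4.71 TPM for MMP7 in shNC cells, and MMP28 shows the widest gap between the groups.

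MMP14 and MMP15 are membrane-type enzymes anchored in the plasma membrane; MMP14 cuts fibrillar collagen at the cell surface and activates pro-MMP2. MMP14 (chr14:22836557-22849027, forward strand) was at 269.8, 254 and 268 CPM in shNC and at 313, 307 and 302 CPM in shMSLN cells. Each shMSLN sample was above each shNC sample. Its mean rose from 264 ± 8.93 to 307 ± 5.63 CPM (mean ± SD, n = 3), a log2FC of 0.22 (SE 0.037, adjusted p = 0.000375, edgeR). This was a small change at the highest level of the 9 genes, and it was larger than the spread between samples.

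MMP15 (chr16:58025566-58046901, forward strand), the close relative of MMP14, was at 27.5, 23.9 and 24.2 CPM in shNC and at 20.3, 17.7 and 18.5 CPM in shMSLN cells. The groups did not overlap, and the direction was opposite to that of MMP14. Its mean fell from 25.2 ± 2.01 to 18.8 ± 1.33 CPM (mean ± SD, n = 3), with a log2FC of -0.42 (SE 0.077, adjusted p = 0.000689 by edgeR). With shMSLN replicate 1 alone the log2FC was -0.31 and the call was lost (adjusted p = 0.0989).

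MMP28, also called epilysin, is a secreted enzyme expressed in epithelia including the epidermis. MMP28 (chr17:35756249-35795707, reverse strand) was at 26.1, 23.8 and 26.8 CPM in shNC and at 13.7, 13.1 and 11.1 CPM in shMSLN cells. The lowest shNC sample was above the highest shMSLN sample by a wide margin. The mean fell from 25.6 ± 1.59 to 12.6 ± 1.33 CPM (mean ± SD, n = 3), with a log2FC of -1.01 (SE 0.084, adjusted p = 3.65e-07 by edgeR), and by adjusted p it stood at position 194 of the 14552 tested genes. With 1 sample left out in turn the log2FC was between -1.08 and -0.93.

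MMP13, collagenase 3, cuts fibrillar collagen and is expressed in cartilage, bone and invasive squamous carcinoma. MMP13 (chr11:102942995-102955734, reverse strand) was at 79.7, 100.1 and 98.1 CPM in shNC and at 80.0, 79.9 and 83.0 CPM in shMSLN cells. Replicate 1 of shNC lay below all 3 shMSLN samples, so the groups overlapped. The mean was 92.6 ± 11.2 CPM in shNC and 81.0 ± 1.74 CPM in shMSLN cells (mean ± SD, n = 3), with a log2FC of -0.19 (SE 0.068, adjusted p = 0.0394 by edgeR). This call was not stable over the settings. With a block for the replicate number the adjusted p was 0.00707 by edgeR. Without shNC replicate 1 the log2FC was -0.29 (adjusted p = 1.13e-05), but it lost the call when any of the other 5 samples was left out (adjusted p from 0.0696 to 0.168), with shMSLN replicate 1 alone (0.245), with upper-quartile scaling (0.0740), with limma-voom (0.0515) and with robust estimation (0.0571).

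MMP7, matrilysin, is a small secreted enzyme of glandular epithelium. MMP7 (chr11:102520508-102530753, reverse strand) was at 2.35, 2.77 and 1.89 CPM in shNC and at 2.42, 2.30 and 2.15 CPM in shMSLN cells. The groups overlapped, with the shMSLN samples inside the range of the shNC samples. The log2FC was -0.031 (SE 0.20, adjusted p = 0.922 by edgeR). With between 34 and 50 reads per sample, a change of the size seen in MMP14 or TIMP2 was not detectable at this depth.

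TIMP1 and TIMP2, the secreted inhibitors, moved in opposite directions. TIMP1 (chrX:47582313-47586789, forward strand) inhibits most soluble MMPs and is a weak inhibitor of membrane-type MMPs. It was at 40.6, 39.8 and 40.3 CPM in shNC and at 53.0, 54.2 and 53.1 CPM in shMSLN cells. The samples of each group lay within 1.5 CPM of each other, and the groups were far apart. TIMP1 rose from 40.2 ± 0.407 to 53.4 ± 0.651 CPM (mean ± SD, n = 3), to 133% of control, with a log2FC of 0.41 (SE 0.047, adjusted p = 1.10e-05 by edgeR).

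TIMP2 (chr17:78852977-78925387, reverse strand) was at 162, 157 and 162 CPM in shNC and at 142, 144 and 137 CPM in shMSLN cells. The groups did not overlap. TIMP2 fell from 160.4 ± 3.14 to 141 ± 3.80 CPM (mean ± SD, n = 3), a log2FC of -0.19 (SE 0.039, adjusted p = 0.00167 by edgeR). With shMSLN replicate 1 alone it was -0.18 and was not called (adjusted p = 0.116). TIMP2 shares 3.52% of its exon bases with CEP295NL on the same strand, which had 0 to 3 reads per sample, and 6.52% with the antisense RNA AC022966.1; whether counting used strand is not given in the sources used here.

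PLAU, the urokinase plasminogen activator, lies on chromosome 10 (chr10:73909177-73917497, forward strand). It was at 52.9, 52.2 and 55.4 CPM in shNC and at 35.7, 34.9 and 33.7 CPM in shMSLN cells. The groups were well separated. PLAU fell from 53.5 ± 1.66 to 34.8 ± 1.01 CPM (mean ± SD, n = 3), a log2FC of -0.62 (SE 0.051, adjusted p = 3.61e-07 by edgeR), and it stood at position 193 of the tested genes, next to MMP28. C10orf55 on the opposite strand shares 31.1% of the exon bases of PLAU, so without knowledge of strand some of these reads cannot be told apart from those of C10orf55.

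PLAUR, the urokinase receptor, is held in the membrane by a GPI anchor, as MSLN is. PLAUR (chr19:43646095-43670547, reverse strand) was at 4.70, 5.01 and 4.81 CPM in shNC and at 5.39, 4.35 and 4.24 CPM in shMSLN cells. Replicate 1 of shMSLN was the highest of the 6 samples and the other two shMSLN samples were the lowest. The log2FC was -0.048 (SE 0.14, adjusted p = 0.825 by edgeR), and the means in TPM were 8.41 and 8.50, so neither scale gave a difference beyond the spread between samples.

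Within-sample ratios set an enzyme against its inhibitor or receptor and do not depend on library size. The ratio of MMP14 to TIMP2 in TPM was 1.64, 1.60 and 1.63 in shNC and 2.18, 2.10 and 2.18 in shMSLN cells, a log2 difference of 0.41. The ratio of PLAU to PLAUR was 6.03, 5.74 and 6.13 in shNC and 3.46, 4.23 and 4.19 in shMSLN cells, a log2 difference of -0.60. In both of these ratios the groups did not overlap.

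The summed TPM of the 5 MMPs over that of TIMP1 and TIMP2 was 1.35, 1.39 and 1.40 in shNC and 1.22, 1.17 and 1.18 in shMSLN cells, a log2 difference of -0.21. The sign of this ratio depended on the unit, since it became 0.090 when estimated counts were used in place of TPM. Estimated counts are not scaled for gene length, so genes weigh differently in the 2 sums. In shNC cells TIMP1 had a mean of 115 TPM but 40.2 CPM, and TIMP2 one of 95.8 TPM but 160 CPM. TIMP3 was not in the sum, although its mean was above those of TIMP1 and TIMP2 in both groups. It was at 205 TPM in shNC and 176 TPM in shMSLN cells. The ratio therefore does not give the balance of the MMPs to all TIMPs. In the exact two-sided permutation test each of the 3 ratios had p = 0.1, which is the smallest value that 3 samples against 3 allow, and the values adjusted over the 3 ratios were also 0.1.

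**Figure D3:**
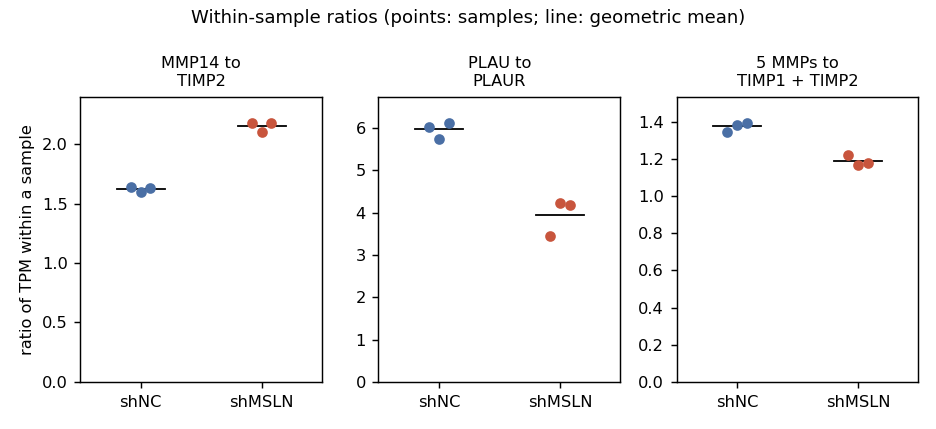
Ratio of TPM within each sample (y axes start at 0; points are samples, lines geometric means; n = 3 each) for 3 pairs of genes or gene sums. MMP14 to TIMP2 was higher in shMSLN cells, near 2.15 against 1.62, and both other ratios were lower. The summed ratio holds TIMP1 and TIMP2 but not TIMP3.

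The promoter sequences of 4 of the genes that changed are shown (RefSeq, GRCh38.p14), from 200 bases before the start to the base before it, with the GC box GGGCGG or its reverse complement in capitals. Of the 9 genes, 6 had promoter entries (7 windows, a pair for PLAU); promoters of MMP13, MMP28 and TIMP2 were not analysed here.
MMP14, chr14:22836385-22836584, forward strand: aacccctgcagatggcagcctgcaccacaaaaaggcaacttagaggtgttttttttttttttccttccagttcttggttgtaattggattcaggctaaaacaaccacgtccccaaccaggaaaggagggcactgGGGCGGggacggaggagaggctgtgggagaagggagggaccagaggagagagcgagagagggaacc
MMP15, chr16:58025554-58025753, forward strand: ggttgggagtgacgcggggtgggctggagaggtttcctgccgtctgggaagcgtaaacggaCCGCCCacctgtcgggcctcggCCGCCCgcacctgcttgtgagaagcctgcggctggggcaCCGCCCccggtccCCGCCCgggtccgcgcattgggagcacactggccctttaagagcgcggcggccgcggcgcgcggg
TIMP1, chrX:47582236-47582435, forward strand: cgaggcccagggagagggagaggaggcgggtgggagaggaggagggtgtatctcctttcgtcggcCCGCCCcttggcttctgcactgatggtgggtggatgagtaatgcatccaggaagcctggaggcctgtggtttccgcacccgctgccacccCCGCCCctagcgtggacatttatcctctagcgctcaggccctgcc
PLAU, second start, chr10:73910932-73911131, forward strand: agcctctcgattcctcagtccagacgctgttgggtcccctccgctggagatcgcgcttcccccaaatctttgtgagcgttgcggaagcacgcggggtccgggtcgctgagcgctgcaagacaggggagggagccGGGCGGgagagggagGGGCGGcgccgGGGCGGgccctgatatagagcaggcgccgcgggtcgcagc
In the 300-base windows from 250 before to 50 after the start, searched on both strands, the GC box was found 1 time in MMP14, 5 times in MMP15, 2 times in TIMP1, 3 times in the second window of PLAU and 0 times in its first, and 45.0% of all 35116 promoter windows held it. The AP-1 motif TGANTCA was found 1 time in MMP7, at -67 to -61, and 1 time in PLAUR, at -186 to -180, and in 7.71% of all windows. The NF-kB motif was found in 0 of the 7 windows and in 11.3% of all windows. The GC box was present in genes that rose (MMP14, TIMP1) and in genes that fell (MMP15, PLAU). Only exact matches to each motif were counted, and MMP13, MMP28 and TIMP2 had no window. The absence of an AP-1 match in the windows of the changed genes therefore does not show that they lack AP-1 sites. A part of these motifs in the changes was not tested.

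Of 18 other MMPs, 16 were listed and 10 were tested, of which 2 were higher and 2 lower (40%, median log2FC 0.0042). Over all tested genes 34.6% were called, which is the share to set beside that of this list and of each list below. MMP19 rose by 0.37 (adjusted p = 0.00246) and the membrane-type MMP16 by 0.65 on the log2 scale (adjusted p = 0.0201). The level of MMP16 was low, at 2.04 to 4.69 CPM or 0.37 to 0.90 TPM over the samples. The gelatinase MMP2, the target of MMP14 and TIMP2, fell from 75.6, 72.6 and 74.3 CPM to 65.8, 63.8 and 62.7 CPM, a log2FC of -0.21 (adjusted p = 0.00203 by edgeR). MMP12, the macrophage elastase, had a log2FC of -0.82 at 0.673 to 1.72 CPM (adjusted p = 0.0413), and MMP12 and MMP16 lost their calls when single samples were left out. The interstitial collagenase MMP1 had a log2FC of -0.076 (adjusted p = 0.780), and the gelatinase MMP9, at 0.113 to 0.779 CPM, was too low to be tested.

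Of 7 other MMP inhibitors, 6 were tested, with 3 higher and 1 lower (66.7%, median 0.32). TIMP3, which binds to the extracellular matrix, had the highest level of the TIMPs at 205 TPM in shNC and 176 TPM in shMSLN cells. It was at 431, 430.4 and 441 CPM in shNC and at 366, 357 and 364 CPM in shMSLN cells, without overlap, a log2FC of -0.26 (SE 0.033, adjusted p = 3.09e-05 by edgeR). The proteoglycan SPOCK1 rose by 0.69 (adjusted p = 8.12e-08), SPOCK2 by 0.48 (adjusted p = 0.0412) and TIMP4 by 0.41 on the log2 scale (adjusted p = 0.0158). Of the 4 TIMPs, therefore, TIMP1 and TIMP4 rose and TIMP2 and TIMP3 fell, and the calls of TIMP4 and SPOCK2 were lost with DESeq2 and without single samples. TFPI2, a Kunitz-type inhibitor, had a log2FC of 0.23 just short of the threshold (adjusted p = 0.0508), and it was called under 5 alternatives (adjusted p from 0.0302 to 0.0499). RECK, the membrane-anchored inhibitor, had a log2FC of -0.52 that did not pass (adjusted p = 0.0682).

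Of 14 partners of the plasminogen system, 11 were tested, with 2 higher and 2 lower (36.4%, near the 34.6% of all tested genes, median 0.10). The inhibitor SERPINE2 (protease nexin 1) and the tissue activator PLAT fell together with PLAU. SERPINE2 was at 15.9, 12.7 and 14.9 CPM in shNC and at 8.01, 7.01 and 7.06 CPM in shMSLN cells, a log2FC of -0.98 (SE 0.11, adjusted p = 6.24e-06 by edgeR), close in size to that of MMP28. PLAT went from 25.3, 23.3 and 22.9 CPM to 19.9, 19.0 and 17.3 CPM (log2FC -0.35, adjusted p = 0.00183). In neither gene did the groups overlap, and PLAT lost its call with shMSLN replicate 1 alone, where its log2FC was -0.26.

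The 2 genes of the plasminogen list called higher were MRC2 and ANXA2. MRC2, the collagen receptor that associates with PLAUR, rose by 0.66 on the log2 scale (adjusted p = 3.34e-05 by edgeR). ANXA2, a plasminogen-binding annexin, rose by 0.24 (adjusted p = 0.00148). The clearance receptor LRP1 had a log2FC of 0.0046 (adjusted p = 0.951). The plasminogen gene PLG itself was at or below 0.186 CPM wherever it had a value.

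Of 10 genes for activation and docking of pro-MMPs, all were tested, with 1 higher and 4 lower (50%, median -0.18). The MMP inducer BSG (CD147) rose by 0.45 on the log2 scale (adjusted p = 6.94e-06). FURIN, at 62.4, 62.1 and 61.0 CPM in shNC and 53.4, 53.1 and 50.3 CPM in shMSLN cells, had a log2FC of -0.24 (adjusted p = 0.000947 by edgeR), and the related convertase PCSK5 one of -0.34 (adjusted p = 0.000344). CD44, which can dock MMP14 at the membrane, had a log2FC of -0.30 (adjusted p = 4.85e-06) and TMPRSS2 one of -0.28 (adjusted p = 0.00893).

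Of 8 transmembrane serine proteases and Kunitz inhibitors, 1 was higher and 2 lower (37.5%, near the 34.6% of all tested genes, median -0.00031). TMPRSS4 was at 146, 130.3 and 143 CPM in shNC and at 87.9, 84.3 and 83.4 CPM in shMSLN cells, a log2FC of -0.71 (adjusted p = 4.45e-08). The inhibitor SPINT2 rose by 0.24 (adjusted p = 0.000567), PRSS22 had a log2FC of -0.23 (adjusted p = 0.0266) that was lost with DESeq2, and matriptase (ST14), which can activate pro-PLAU, one of -0.069 that did not pass (adjusted p = 0.203).

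Of 14 cathepsins and cystatins, 6 were higher and 3 lower (64.3%, median 0.060). The cysteine protease CTSV rose by 0.82 on the log2 scale (adjusted p = 1.30e-08), followed by the cystatin CST6 (0.40, adjusted p = 0.00864), CTSH (0.27, adjusted p = 1.94e-05) and CTSA (0.20, adjusted p = 0.000651). CTSS, CTSC and CSTB fell, with log2FC values of -0.42, -0.32 and -0.15 (adjusted p = 0.000122, 1.13e-05 and 0.0141). Of 12 ADAM and ADAMTS genes, 10 were tested, with 4 higher and 1 lower (50%, median 0.20). ADAM19 (0.59), ADAMTS1 (0.55), ADAM12 (0.38) and ADAMTS6 (0.33) rose and ADAM15 (-0.18) fell, and the sheddases ADAM10 and ADAM17 had log2FC values of 0.0084 and -0.072 that did not pass (adjusted p = 0.886 and 0.271). The calls of CTSD, CSTB, ADAM12, ADAM15 and ADAMTS6 were lost when single samples were left out. With shMSLN replicate 1 alone, MMP2, FURIN, TMPRSS2, CTSA, CTSB, CTSD and CST6 were not called either. Their log2FC values there were -0.17, -0.21, -0.25, 0.21, 0.18, 0.18 and 0.41 in that order. With all samples they were -0.21, -0.24, -0.28, 0.20, 0.14, 0.12 and 0.40. Also not called were MMP12, MMP16, TIMP4, SPOCK2, PRSS22, CSTB, ADAM12, ADAM15 and ADAMTS6. Among these, MMP12 (-0.38) and PRSS22 (-0.093) changed less than with all samples (-0.82 and -0.23). That fit holds a single shMSLN sample, so a lost call need not mean a smaller change.

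**Figure D4:**
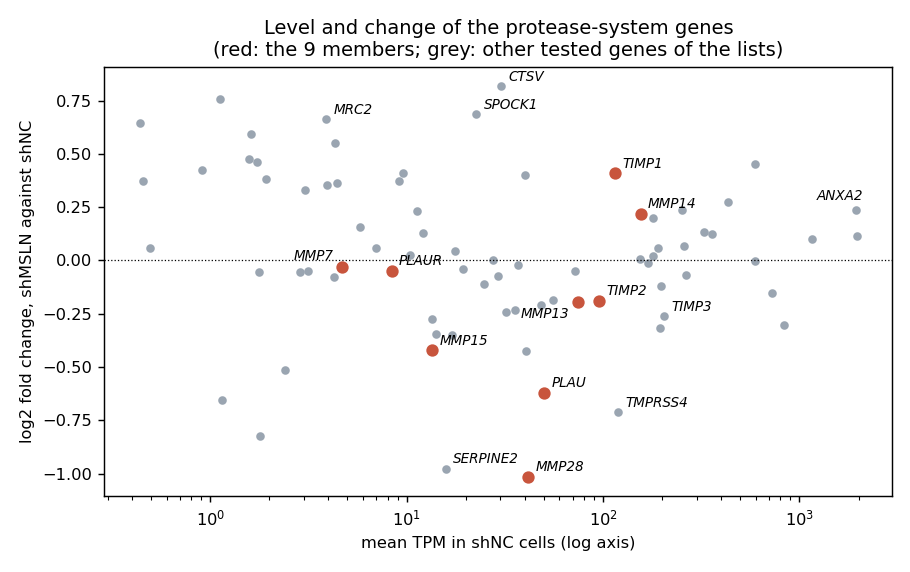
Mean TPM in shNC cells (x axis, log scale) against log2FC (y axis) for the 9 genes (red) and the other tested protease genes (grey). MMP28 had the lowest log2FC shown, -1.01 at 41.6 TPM, with SERPINE2 next at -0.98, and TIMP1 was the highest of the 9 at 0.41.

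The genes whose log2 CPM followed that of MMP28 most closely over the 6 samples, among 13760 tested genes with a mean of at least 1 CPM, were KHK, MRPS35 and UTP20, with Pearson r of 0.999, 0.999 and 0.998. For PLAU they were RNF20, MAFG and AP2B1, each with r of 0.999. Their log2FC values were smaller than those of MMP28 and PLAU, at -0.36, -0.22 and -0.32 for the first set and -0.43, -0.26 and -0.22 for the second. These correlations describe 6 samples in 2 groups, which share the difference between the groups.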

How the data were processed

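RNA was extracted with TRIzol, and oligo(dT)-enriched libraries were sequenced by BGI. The authors deposited one table with estimated counts, FPKM and TPM values per gene for each of the 6 samples, and it was matched to the samples by column name. The authors' estimated counts carry no scaling for depth, whereas TPM and FPKM, as deposited, account for gene length as well as depth. The submitters' processing notes name the build GRCh38.p13; aligner, quantifier, annotation and use of strand are not given in the sources used here. The table lists missing marks for 695 to 1103 genes in each shMSLN sample and 0 in each shNC sample; 1287 genes with any missing value were left out, none of them among the 9.

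Counts were rounded and compared in R 4.3.3 with the quasi-likelihood test of edgeR 4.0.16 (TMM, filterByExpr, glmQLFit and glmQLFTest, no covariate, Benjamini-Hochberg adjustment over 14552 genes). Standard errors came from the same fit. CPM used TMM-scaled library sizes. TPM was used as deposited for levels and ratios. limma 3.58.1 (voom) and DESeq2 1.42.0 were alternatives, with other scalings, filters, robust dispersion estimates, a block for the replicate number, missing values as 0, and each sample left out. The scripts were tested on simulated data.

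The 9 genes and the lists were chosen with earlier results of these data known. Named from each list were the called genes with the largest changes, at most 4 each way, plus TIMP3, MMP1, MMP2, MMP9, PLAT and ST14, and for MMP28 and PLAU the 3 genes closest in pattern. An item that this rule and the lists covered is not reported here. FPKM served only in an alternative for the ratios. RECK, TFPI2, CTSB, CTSD, LRP1, ADAM10, ADAM17, PLG, ENO1, S100A10, CD151, HPN and CSTA fall outside this rule and were picked with their values in view. Replicates of a group differed by more than sampling noise (chi-square per degree of freedom from 1.27 to 5.88), and each was counted as 1 sample. Coordinates are from GENCODE release 29, promoter sequences from RefSeq.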

Additional observations from a re-analysis of the deposited data

How the results depend on the processing

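MMP7, MMP14, MMP28, TIMP1, PLAU and PLAUR kept their call, or lack of one, under all 16 alternatives, and MMP15 and TIMP2 under 15 of 16. With shMSLN replicate 1 alone, chosen after seeing the data, 1797 genes were called (876 higher, 921 lower), 2 of the 9 genes were called lower, and MMP13 (-0.21), MMP15 (-0.31) and TIMP2 (-0.18) were not called; the fit then holds a single shMSLN sample, assumed to vary like the shNC samples. Fewer genes of each protease list were called in that setting, and fewer of all genes were called as well. The list counts are therefore not given for it. MMP13 was not called with upper-quartile scaling (-0.16), limma-voom (-0.19) or robust estimation (-0.19), and with samples left out in turn it ranged from -0.29 to -0.13. Upper-quartile scaling called 4 plasminogen partners higher, ENO1 and S100A10 being added, and 0 ADAM genes lower. DESeq2 called 1 other MMP lower, 1 other MMP inhibitor higher, 1 transmembrane serine protease lower and 2 ADAM genes higher. For these settings and those below, the share of all tested genes called is not given beside the list counts. The counts therefore do not set a list apart from other genes.

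With single samples left out, the other MMPs had 1 to 2 higher and 1 to 2 lower, the other MMP inhibitors 1 to 3 higher and 1 to 2 lower, the plasminogen partners 2 to 4 higher, the activation genes 1 to 2 higher, the transmembrane serine proteases 1 to 2 lower, and the ADAM genes 2 to 4 higher and 0 to 1 lower. The counts of 4 plasminogen partners and of 2 activation genes came without shNC replicate 1, which added ENO1, S100A10 and CD151. MMP12 was not called without shNC replicate 2 or 3 or shMSLN replicate 2 or 3, and MMP16 without shNC replicate 2 or shMSLN replicate 3. TIMP4 was not called without shMSLN replicate 1 or 2, and SPOCK2 without shNC replicate 3 or any shMSLN replicate. RECK was called without shMSLN replicate 2 only. PRSS22 was not called without shNC replicate 2 or 3 or shMSLN replicate 2 or 3, CTSD without shNC replicate 2 or shMSLN replicate 1 or 2, CSTB without shMSLN replicate 2 or 3, ADAM12 without shNC replicate 3 or shMSLN replicate 3, ADAM15 with any sample left out but shNC replicate 2, and ADAMTS6 with any left out but shNC replicate 2 or shMSLN replicate 2. TFPI2 was called with upper-quartile scaling, at least 10 counts in every sample, robust estimation, the replicate block and missing values as 0. HPN was called with at least 10 counts in every sample and without shNC replicate 2, and CSTA without shNC replicate 1. List medians moved by more than the spread between samples as follows: the cathepsins to 0.089 with upper-quartile scaling and 0.11 with shMSLN replicate 1 alone, the ADAM genes to 0.33 and the other MMP inhibitors to 0.23 with every gene of at least 1 count tested, the other MMPs to 0.17 and the activation genes to -0.23 with shMSLN replicate 1 alone, and the 9 genes to -0.13 without shNC replicate 2. The causes were not tested.

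The ratio of the 5 MMPs to TIMP1 and TIMP2 turned from -0.21 to 0.090 with estimated counts, which are not scaled for gene length, in place of TPM. The samples share only a replicate number: deviations of same-numbered samples correlated at 0.198, 0.0772 and 0.105, each sample with its own number most. With the replicate block, 4 plasminogen partners were called higher (ENO1 and S100A10 added) and MMP13 had an adjusted p of 0.00707; it changed the call of no member. At 34 to 50 reads for MMP7, and fewer for MMP9, depth limits what could be detected.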
